A study of Arabidopsis thaliana with 18 samples.

Results

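The comparison described here sets heat-shocked seedlings of the HSFA6b-RD line (RD) against heat-shocked seedlings of the HSFA6b-OE line (OE), 2 arrays each, which are 4 of the 18 arrays of the series. By genotype label, RD carries a dominant-negative form of the Arabidopsis thaliana heat shock factor HSFA6b, and OE overexpresses that factor. The members were all samples titled as RD or OE after heat shock at 37 °C for 1 h. Whole seedlings were 7 days old and had grown at 22 °C on plates with 0.5X MS salts and 1% sucrose. Of the other groups, RD control and OE control stayed at 22 °C, RD NaCl and OE NaCl were given 150 mM NaCl for 6 h, and the wild type (WT, accession Col-0) was used after the same heat shock, under the same NaCl treatment and at 22 °C, with 2 arrays in each group. The promoter that drives each transgene, the cells in which it acts, the accession of both lines and the number of independent lines are not given in the sources used here. The replicates are labelled biological. No probe set could be assigned to HSFA6B itself, so its level in RD and OE is not analysed here. In whole seedlings, fewer cells of a type and less RNA per cell cannot be told apart.

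Heat shock factors are transcription factors that bind short repeats, the heat shock elements, in promoters. Upon heat they drive genes for chaperones: small heat shock proteins hold unfolding proteins in solution, and HSP70, HSP90 and HSP101 with their partners refold, stabilise or disaggregate them. In Arabidopsis the family has many members. Class A factors activate genes, and HSFA6b is known as a class A factor tied to abscisic acid (ABA) and to heat and drought tolerance. A dominant-negative form is made to oppose the genes that the native factor would turn on.

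On the 4 heat arrays, between 67.81% and 70.87% of probe sets were called Present, the deposited call for a signal above background. The rule kept 15644 of 22746 probe sets that are not controls: 15102 were Present on both RD heat arrays, 14933 on both OE heat arrays, and 14391 on both arrays of both lines. Over these, log2 signals of replicate arrays correlated at 0.98 in RD heat and 0.977 in OE heat, and arrays of different lines at 0.948 to 0.96. These correlations run over probe sets and describe the arrays only. Summed signals of the marker lists were 481 to 483 in RD heat and 326 to 403 in OE heat for 4 root genes, and 46667 to 66264 in RD heat and 54020 to 55232 in OE heat for 2 leaf genes. For 2 guard cell and trichome genes they were 120 to 177 in RD heat and 107 to 165 in OE heat. None of the tested markers passed the test below, and their part in any result was not tested.

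Of the 15644 probe sets tested, 258 (1.65%) differed between RD heat and OE heat, with limma's moderated test and an adjusted p under 0.05. In RD heat, 41 were higher (0.262%) and 217 were lower (1.39%), while the median log2 difference over all tested probe sets was 0.03. At an unadjusted p under 0.05 there were 1765 (11.3%). The 217 lower probe sets had a median log2 difference of -1.64, and 67 of them were over 2 log2 units lower. The 41 higher ones had a median of 1.8, and 13 were over 2 log2 units higher. In RD heat, 11 of the 217 lower probe sets had no Present array. In OE heat, 4 of the 41 higher ones had none. The 2 probe sets that lie on each side of the threshold had adjusted p-values of 0.0498 and 0.0502. The count rested on all 4 arrays: it was 47 without RD heat 1, 129 without RD heat 2, 51 without OE heat 1 and 77 without OE heat 2, and 38 calls (7 higher, 31 lower) passed under every such omission. Both arrays of one line lay above both of the other in each of the 258, which selection on these arrays favours, so nothing is read from it; over all tested probe sets RD lay wholly above OE in 26.2% and wholly below in 22.7%. A fit on the 4 heat arrays alone called 985, and a fit without the term for the array series called 157.

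**Figure D1:**
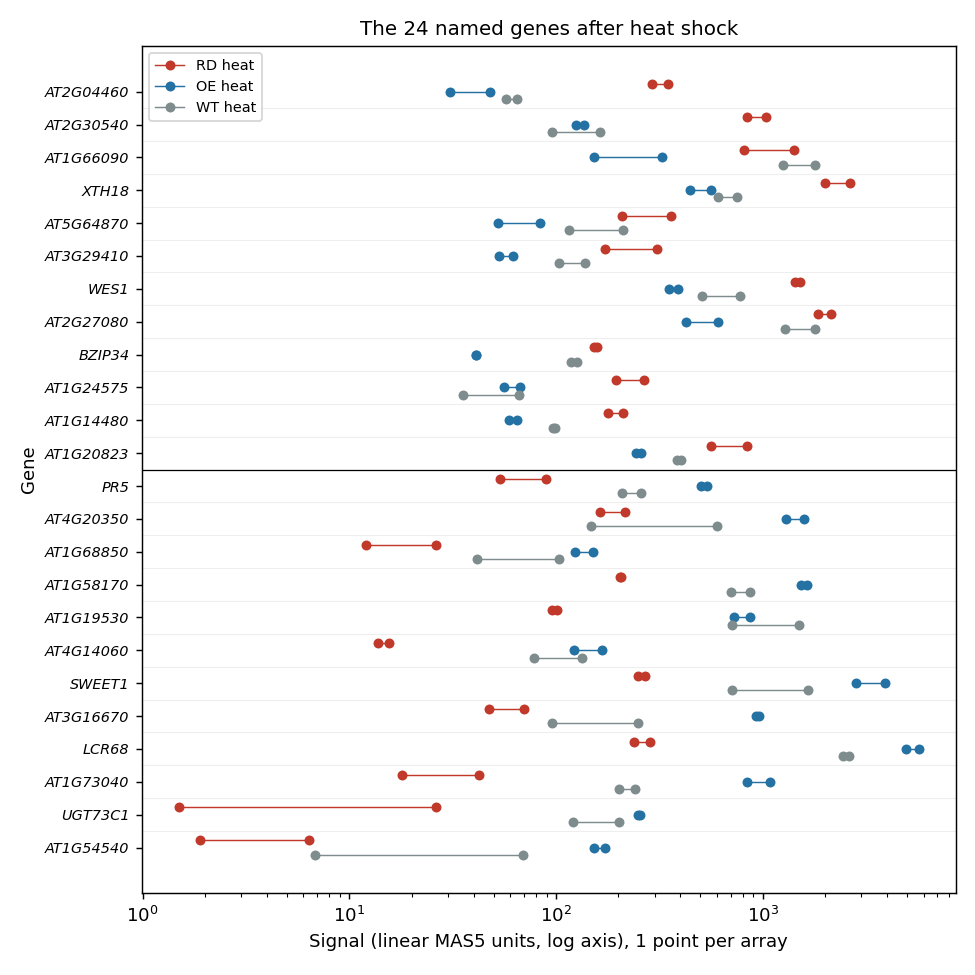
Signal (linear units on a log axis) of the 12 named genes with the largest increase and the 12 with the largest decrease in RD heat, with 1 point per array and a line joining the 2 arrays of a group. RD heat is drawn above OE heat and WT heat in each row. Arrays of RD and OE that do not overlap were a condition for naming a gene, so their separation here is no result.

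The named genes lower in RD heat include some for secreted and cell wall proteins. Since a gene could be named by size only where the lines did not overlap, the absence of overlap in these genes describes the rule and supports nothing. LCR68, which encodes a small cysteine-rich secreted peptide of the defensin-like kind, had signals of 286.1 and 238.2 in RD heat, against 4933.6 and 5672.9 in OE heat. The RD arrays lay 20.3-fold below the OE arrays, a log2 difference of -4.34 ± 0.35 (SE; adjusted p = 5.28e-05, limma). AT1G58170, a dirigent-like gene of the family that steers lignan and lignin coupling, stood at 205.2 and 204 in RD heat, against 1646.1 and 1529.6 in OE heat (7.76-fold lower, adjusted p = 0.000792, limma). The class III peroxidase gene AT1G68850, whose family oxidises cell wall phenolics, reached 12.1 and 26.3 in RD heat, against 124.1 and 150.8 in OE heat, with a log2 difference of -2.94 ± 0.47 (adjusted p = 0.00658, limma). It was the one lower member of 46 tested class III peroxidases, none of which was higher. Over all tested probe sets 1.39% were lower, so nothing is read from this count.

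Of the 3 tested members of the salicylate and defence list, PR5 fell and none rose. Among all tested probe sets, 1.39% were lower and 0.262% higher, and with 3 members nothing is read from this count. PR5, a thaumatin-like gene and a common marker of salicylate signalling, had 53.8 and 89.1 in RD heat, against 501.7 and 537.5 in OE heat. Its fall was 7.5-fold, with a log2 difference of -2.91 ± 0.33 (adjusted p = 0.000801, limma). AT1G73040, which encodes a jacalin-like lectin, read 18 and 42.2 in RD heat without a Present call, against 838.7 and 1087.3 in OE heat, at least 34.6-fold lower (adjusted p = 0.00699, limma). The RD arrays read low for both genes. The other tested members of that list, ICS1 (0.2) and EDS1 (0.29), had small positive log2 differences that did not pass. Outside the naming rule, and chosen after their values were seen, probe sets described as basic chitinase (-1.63) and as the hevein-like protein PR-4 (-1.04) were lower too. So were the genes AT5G47250 (-2.41), AT5G17680 (-1.99) and AT5G38850 (-1.59), which the array files describe as disease resistance proteins. AT1G66090, with a similar description, was higher instead (below). Tested members of these families were not counted, and no group result is read from these picks.

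SWEET1 was named by the rule, while the other transport probe sets given with it were picked after their values were seen and form no tested group. SWEET1, a sugar facilitator that passes glucose across the plasma membrane, had signals of 270.6 and 250.6 in RD heat, against 2833.1 and 3894.5 in OE heat. It was 12.8-fold lower, a log2 difference of -3.67 ± 0.3 (adjusted p = 5.28e-05, limma). Of 21 tested probe sets described as potassium channels or transporters, a group formed after the data were seen, 4 were lower and none was higher. The group's median of -0.09 lay near that of all probe sets. Over all tested probe sets 1.39% were lower and 0.262% higher. The probe set described as KAT1, an inward potassium channel best known from guard cells, had 27.7 and 33.8 in RD heat, against 408.3 and 308.8 in OE heat (log2 difference -3.54 ± 0.51, adjusted p = 0.00333, limma). The one described as KAT2, its close relative, had 49.9 and 61.2 in RD heat, against 303.1 and 224.2 in OE heat. Both channels read low on both RD arrays. The one described as AKT1, the main inward channel of root cells, was lower by less (-1.22), as was a putative potassium transporter (-0.87). A probe set described as like SKOR, the outward channel that loads potassium into the xylem, was outside that group by its wording and was lower by -1.97. Of 19 tested aquaporins 2 were lower and none higher, and probe sets for 2 ABC transporters were lower by -3.1 and -2.02.

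Enzymes of surface lipids, specialised metabolism and osmoprotectants followed, again by the array files' descriptions and chosen after their values were seen. Apart from the P450s, tested members of their families were not counted, and no group result is read from them. A cytochrome P450 had 434.5 and 310.1 in RD heat, against 4093.7 and 4373.9 in OE heat (-3.53 ± 0.28, adjusted p = 5.28e-05, limma). It was 1 of 3 lower members of 118 tested P450 probe sets, none of which was higher. Over all tested probe sets 1.39% were lower, so nothing is read from this count. One beta-ketoacyl-CoA synthase, a family that elongates very long chain fatty acids for waxes and suberin, had 150.7 and 195.6 in RD heat, against 2035.6 and 1655.5 in OE heat (-3.42 ± 0.31, adjusted p = 0.000118, limma), and another was lower by -1.78. A nonspecific lipid-transfer protein, of a family that carries lipids to the cell surface, had 147.5 and 175.4 in RD heat, against 2950 and 3500 in OE heat (-4.32 ± 0.77, adjusted p = 0.0114, limma). A galactinol synthase (-1.8) and a raffinose synthase-like probe set (-1.33), both on the route to the raffinose sugars that build up under stress, were lower. So was kin1, described as induced by cold and ABA, with 2648.9 and 2765 in RD heat, against 10107.3 and 9304.1 in OE heat (-1.84 ± 0.24, adjusted p = 0.00164, limma).

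The other named genes lower in RD heat have varied or unassigned roles. AT1G54540, of unknown function, had signals of 1.9 and 6.4 in RD heat, without a Present call, against 153.4 and 173.4 in OE heat (at least 18.8-fold lower, adjusted p = 0.00221, limma). UGT73C1, a glucosyltransferase that acts on small molecules, had 26.2 and 1.5 in RD heat, also without a Present call, against 248.9 and 255.2 in OE heat (at least 18.3-fold lower, adjusted p = 0.0115, limma). For these 2 genes the signals of RD heat give only a bound. AT1G19530 had 95.4 and 101.3 in RD heat, against 872.3 and 729.5 in OE heat (8.11-fold lower, adjusted p = 5.28e-05, limma). AT3G16670 stood at 47.6 and 70 in RD heat, against 958.5 and 929.4 in OE heat (log2 difference -4.03, adjusted p = 0.00918, limma). AT4G20350 reached 164 and 216.5 in RD heat, against 1290.7 and 1578.4 in OE heat (-2.92, adjusted p = 0.00894, limma). AT4G14060, which resembles major latex proteins, was lower by -3.29.

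Fewer genes were higher in RD heat, and they included redox, cell wall and hormone genes. The glutaredoxin gene AT2G30540, whose family reduces disulfides with glutathione, had signals of 837.5 and 1035.6 in RD heat, against 136.1 and 124.4 in OE heat. The log2 difference was 2.84 ± 0.29 (7.16-fold, adjusted p = 0.000391, limma). Another glutaredoxin gene, AT4G15680, was lower by -2.8 (named here after its value was seen). XTH18, which cuts and rejoins cell wall xyloglucan, had 2654.7 and 2003.9 in RD heat, against 564.4 and 442.6 in OE heat (4.61-fold higher, adjusted p = 0.00053, limma). Of the 34 tested expansin and xyloglucan endotransglycosylase probe sets, XTH18 was the one that rose, and 1 fell by 2.72 on the log2 scale. Over all tested probe sets 0.262% were higher and 1.39% lower. The cell wall loosening list itself had no call among 7 tested members (median 0.31).

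Auxin genes showed the highest list median. WES1 (GH3.5), which couples auxin to amino acids, had 1517.5 and 1427.9 in RD heat, against 352.7 and 387.6 in OE heat, a difference of 1.99 ± 0.38 (adjusted p = 0.0175, limma). It was the one member of 7 tested in the auxin response list to pass. All 7 had positive differences, from 0.34 to 2.27 with a median of 1.37, beside 0.03 over all probe sets. In fitted differences from WT heat the list median was -0.12 for RD heat and -1.33 for OE heat, comparisons that share the WT heat arrays. Under NaCl 6 of the 7 RD minus OE differences were negative and 1 was positive (median -0.81), and 1 passed as lower. In controls all 7 were positive (median 0.32), and none passed. GH3.3 had 705.4 and 849.5 in RD heat, against 206.3 and 124.2 in OE heat (2.27 ± 0.53, adjusted p = 0.0518, limma). IAA2, an early auxin-induced repressor gene, had 4374.1 and 4086.4 in RD heat, against 1669.2 and 1470.3 in OE heat (1.43 ± 0.35, adjusted p = 0.0609, limma). Neither of these passed. Their arrays did not overlap between the lines, but RD lay wholly above OE in 26.2% of all tested probe sets. The wider group of 64 probe sets with auxin-related descriptions had a median of 0.36. In it 2 were higher, WES1 and one like auxin-induced X15 (2), and 2 were lower (-2.44 and -1.51). Over all tested probe sets 0.262% were higher and 1.39% lower. Under NaCl 14 of the 64 passed as lower and none as higher, where 1.07% of all tested probe sets were lower.

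Regulators and ethylene-related probe sets were also among the higher calls, here in groups formed after the data were seen. Over all tested probe sets 0.262% were higher and 1.39% lower. Of 44 tested AP2 domain and ethylene response factor probe sets 4 were higher and none was lower, with a group median of 0.26. One of the 4 had no Present call in OE heat and was at least 4.92-fold higher, and the log2 differences of the others were 2.25, 1.65 and 0.96. The probe set described as the ACC synthase AtACS-6, of the enzyme family that makes the ethylene precursor, had 3132.2 and 1611.8 in RD heat, against 775.2 and 370.1 in OE heat (2.07 ± 0.37, adjusted p = 0.0115, limma). A MYB factor had 2658.5 and 1588.8 in RD heat, against 478.9 and 489 in OE heat (2.09 ± 0.26, adjusted p = 0.00124, limma). It was the one call among 72 MYB probe sets tested, and a WRKY factor (1.68) was the one call among 21. BZIP34, a bZIP transcription factor gene, had 157.4 and 153.2 in RD heat, against 41.1 and 40.8 in OE heat without a Present call, at least 3.79-fold higher (adjusted p = 0.0249, limma).

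Among the other named genes higher in RD heat, AT2G27080 had 2149.7 and 1851.7 in RD heat, against 426.8 and 607 in OE heat (1.97 ± 0.21, adjusted p = 0.00053, limma). AT1G66090, described as a disease resistance protein, had 1424.3 and 814.8 in RD heat, against 327.1 and 153.4 in OE heat (2.27 ± 0.45, adjusted p = 0.0199, limma). AT2G04460, described as a retroelement polyprotein, had 291 and 349.9 in RD heat, against 30.8 and 47.7 in OE heat (8.32-fold higher, adjusted p = 0.00364, limma). The nodulin-like AT5G64870 (2.05), the terpene synthase gene AT3G29410 (2.02), AT1G24575 (1.9), AT1G14480 (1.64) and AT1G20823 (1.46) completed the named genes. A probe set described as similar to a tobacco cell death associated protein, picked after its values were seen, had 113.5 and 67.3 in RD heat, against 1.9 and 6.9 in OE heat without a Present call (at least 7.68-fold higher).

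Single arrays mattered for many of these genes. Of the 25 named genes that passed, 9 did so whichever heat array was left out: AT1G54540, LCR68, SWEET1, AT1G19530, AT1G58170, PR5, AT2G27080, XTH18 and AT2G30540, with a highest adjusted p of 0.0443 for AT1G54540 (limma). The other 16, which include HSP21.7-CVII below, lost the call without at least 1 heat array. Without RD heat 1, RD heat 2, OE heat 1 and OE heat 2 in turn, 11, 18, 10 and 11 of the 25 kept it, and none changed direction. Among the lower of those 16, the highest adjusted p under such an omission ran from 0.0947 for AT4G14060 to 0.181 for HSP21.7-CVII, and among the higher from 0.0669 for AT2G04460 to 0.411 for AT5G64870. Of the probe sets named by description, the P450 with the largest fall, the first beta-ketoacyl-CoA synthase, kin1, the X15-like probe set and the MYB and WRKY factors kept the call whichever array was left out, as did AT5G47250. The other probe sets and genes named so far after their values were seen lost it without at least 1 array, with a highest adjusted p of 0.063 for the cell death associated one, 0.0655 for KAT1, 0.075 for KAT2, 0.217 for AtACS-6 and 0.0807 to 0.517 for the 4 ethylene response factors (limma).

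After heat shock most small heat shock protein genes of the list gave very high signals in both lines, and 1 differed. Of 19 genes in the list, 15 had a probe set assigned by gene, and all 15 were tested. Probe sets without an assigned gene are not in this count. Of the 15, 1 was lower in RD heat, where 1.39% of all tested probe sets were, and none was higher. The median log2 difference was -0.17, with 14 of 15 negative. HSP17.6A had signals of 36501.6 and 25761.3 in RD heat, against 35497.1 and 32973.7 in OE heat, and the arrays of the lines overlapped (-0.16 ± 0.46, adjusted p = 0.956, limma). HSP21, the chloroplast member, had 26696.6 and 20595.4 in RD heat, against 30607.6 and 30033.2 in OE heat (-0.37 ± 1.3, adjusted p = 0.964, limma). Its standard error leaves room for large differences either way. The highest signal of any tested or untested probe set was 31438 to 47559 on the RD heat arrays and 41864 to 43615 on the OE heat arrays, so these genes lay near the top of the range, and whether signals are compressed there was not tested. The one that fell, AT5G54660 (HSP21.7-CVII), was a dim member, at 103.6 and 63.6 in RD heat, against 259.5 and 288.6 in OE heat (-1.75 ± 0.35, adjusted p = 0.0211, limma).

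Without heat, the small heat shock proteins had mostly negative differences between the lines. In the control groups 3 of the 15 were lower in RD and none was higher, where 0.447% of all tested probe sets were called (67 lower, 0.428%, and 3 higher, 0.0192%). The list median was -1.95, beside 0 over all probe sets (5 of the 15 had no Present call in RD control, so their fitted differences are no exact sizes), and in 14 of 15 both RD control arrays lay below both OE control arrays, which held for 20% of all tested probe sets. HSP17.6A had 23.3 and 39.4 in RD control, against 245.6 and 363.7 in OE control (-3.3, adjusted p = 0.00585, limma). HSP26.5-MITO (AT1G52560) had 2.3 and 2.3 in RD control, against 74.9 and 107.4 in OE control, at least 10.5-fold lower in RD control, where it had no Present call (adjusted p = 0.0224, limma). HSP23.6-MITO passed (adjusted p = 0.0325, limma) with no Present call in either control group, so no size is given. These 3 calls rested on single arrays: none remained without RD control 1 or without OE control 2, 1 remained without OE control 1, quantile normalisation gave 7, and a fit with only the arrays of the groups compared gave 0.

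**Figure D2:**
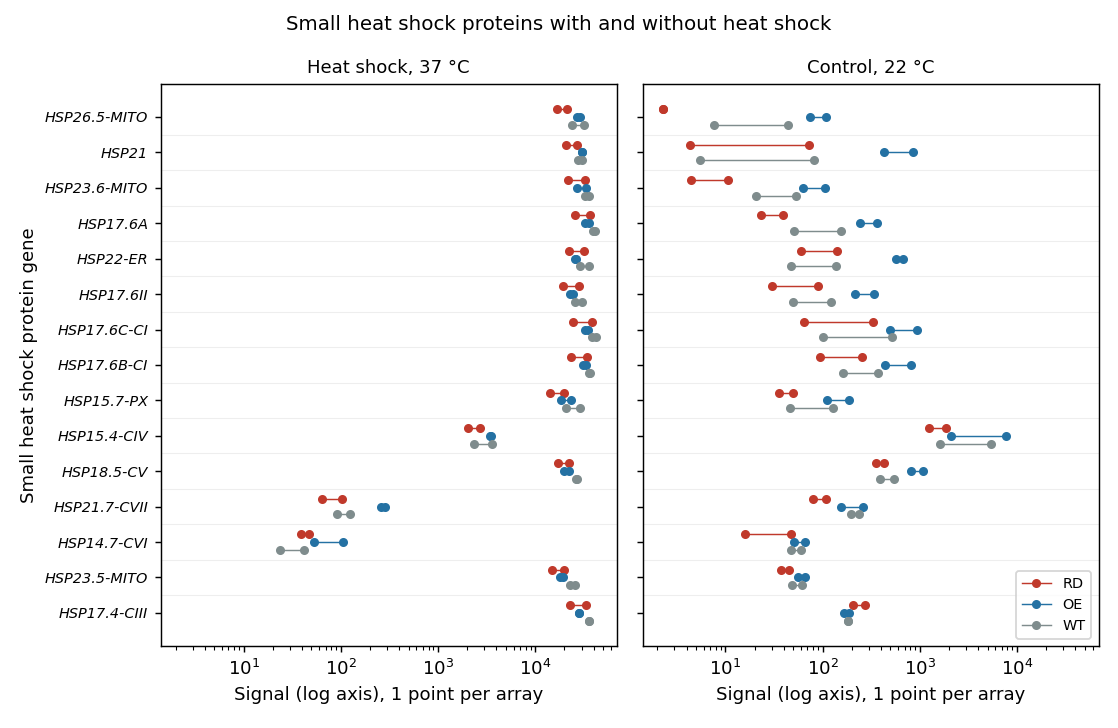
Signal (log axis) of the 15 tested small heat shock protein genes after heat shock (left) and in control seedlings (right), with 1 point per array and RD, OE and WT from top to bottom in each row. After heat shock RD and OE points lie together for most genes, while in control seedlings both RD points lie left of both OE points for 14 of 15 genes.

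The difference between the lines under heat was set against that without heat in 1 interaction contrast. It passed for 1 of 15644 probe sets (0.00639%), and 756 had an unadjusted p under 0.05 (4.83%). That probe set is described as heat shock protein 18 and has no gene assigned. It had 33689.6 and 24287.4 in RD heat, against 32699 and 33118 in OE heat (-0.2 ± 0.24), while it had 94.2 and 119.3 in RD control, against 965.3 and 1101.1 in OE control (-3.28, adjusted p = 4.22e-05, limma). The heat difference exceeded the control difference by 3.08 log2 units (adjusted p = 0.0094, limma). Its heat signals lay near the top of the arrays' range, and the part of any compression there in this interaction was not tested. The call was lost without RD heat 1, OE heat 1, OE heat 2, RD control 1, OE control 1 or OE control 2, with values of 2.84 to 3.32 over all single omissions. The 15 listed small heat shock proteins do not include the heat shock protein 18 probe set. Their interaction had a median of 1.75, beside 0.03 over all probe sets, 13 of 15 values were positive, and none passed.

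The larger chaperones did not differ detectably under heat. None of the 12 tested members of the HSP100, HSP90, HSP70 and co-chaperone list passed, with a median of -0.06 (0.04 with quantile normalisation) and a range from -0.69 to 0.5. HSP101, the disaggregase needed for thermotolerance, had 38699.4 and 25588.1 in RD heat, against 33614.8 and 33720.5 in OE heat (-0.1 ± 0.5, adjusted p = 0.974, limma). Its heat signals also lay near the top of the arrays' range, and whether signals are compressed there was not tested. In controls, ROF2, a heat-induced FKBP-type isomerase, was the one member lower in RD, with 126.2 and 196.6 in RD control, against 387 and 407.1 in OE control (-1.33, adjusted p = 0.0249, limma), a call lost without at least 1 control array (highest adjusted p = 0.228). Among 68 tested probe sets described as heat shock proteins, 2 were lower in RD heat and 7 in RD control, and none was higher in either. Over all tested probe sets 1.39% were lower in heat and 0.428% in controls. The larger fall in heat was that of AT1G11660, described as a putative heat-shock protein, with 2900.9 and 4649.9 in RD heat, against 15094.6 and 15763.9 in OE heat (-2.07 ± 0.34, adjusted p = 0.00708, limma). The other was AT5G37710, a calmodulin-binding heat-shock protein by description (-1.02). Both lost the call without at least 1 heat array (highest adjusted p of 0.14 and 0.501).

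Heat shock factors themselves were covered thinly by gene: of 21 in the list 3 had a probe set assigned by gene, and 2 were tested. HSFB1 (HSF4), a class B factor that represses, had 14595.3 and 13110.5 in RD heat, against 17100.2 and 18951.2 in OE heat (-0.38, adjusted p = 0.664, limma). In controls it had 108.5 and 144 in RD, against 328.6 and 449 in OE (-1.62, adjusted p = 0.0129, limma), also lost without at least 1 control array (highest adjusted p = 0.177). HSFA1B was at 97.9 and 127.5 in RD heat, against 127.1 and 104.5 in OE heat, with overlapping arrays. By description there were 22 tested factor probe sets, of which 1 was lower in RD heat and 2 in RD control, with a heat median of -0.31. Over all tested probe sets 1.39% were lower in heat and 0.428% in controls.

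The one lower in RD heat is described as HSF8. It had 466.3 and 457.7 in RD heat, against 1547.1 and 1364.7 in OE heat, 3.15-fold lower (-1.65 ± 0.22, adjusted p = 0.0017, limma). In controls it had 146.9 and 231.3 in RD, against 223.5 and 243.2 in OE (-0.34, adjusted p = 0.885, limma). A Cys2/His2 zinc finger factor probe set, picked after its values were seen, had 1688.8 and 1280 in RD heat, against 8302.4 and 7678.4 in OE heat (-2.44 ± 0.21, adjusted p = 8.50e-05, limma). Tested members of its family were not counted, and no link to HSF8 is read from it. The heat calls of both probe sets held whichever heat array was left out.

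Another probe set, which has no gene assigned and is described as a putative heat shock protein similar to a putative heat shock factor, stood apart from WT in both lines. Whether it detects HSFA6B, and so either transgene, cannot be told from the sources used here. It had 11842.9 and 9189.9 in RD heat, 3458.4 and 2548.7 in OE heat, and 109 and 50.2 in WT heat. In controls it had 3447.2 and 4120.5 in RD, 1652.1 and 1448.7 in OE, and 22.5 and 27.8 in WT. Against WT heat the log2 difference, fitted with the array-series term, was 6.98 for RD heat (adjusted p = 6.53e-05, limma). For OE heat it was 5.16 (adjusted p = 0.00249, limma), and both comparisons share the WT arrays. Between the lines under heat it was 1.81 ± 0.48 and did not pass (adjusted p = 0.0875, limma).

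**Figure D3:**
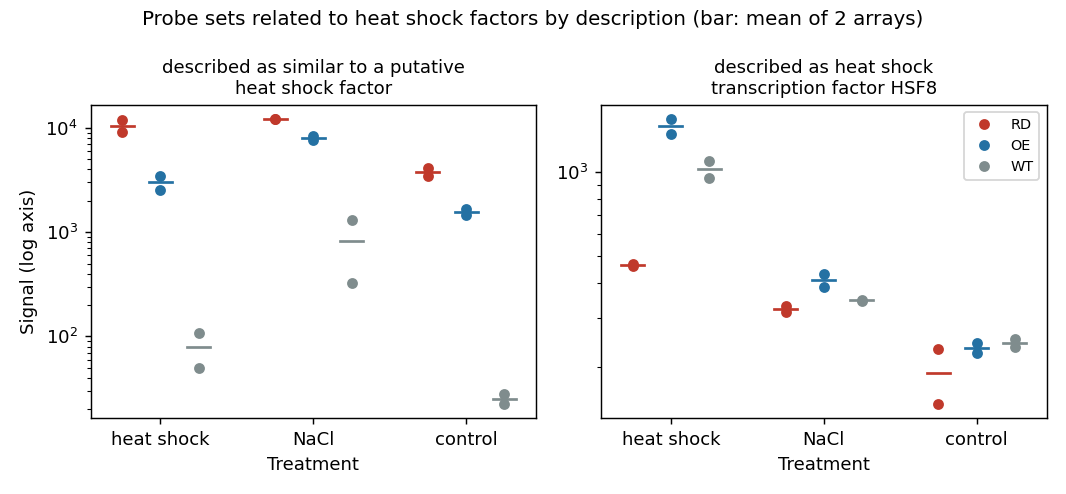
Signal (log axis) of 2 probe sets described as related to heat shock factors, the one described as similar to a putative heat shock factor (left) and the one described as HSF8 (right), by treatment, with RD, OE and WT from left to right, points for arrays and bars for the mean of 2 arrays. In the left panel every RD and OE point lies above every WT point of the same treatment; in the right panel both RD heat points lie below the OE heat and WT heat points.

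The list of ABA and osmotic stress genes, matched by assigned gene, had mostly negative differences that did not pass. It does not hold the probe sets for kin1, a galactinol synthase and a raffinose synthase-like protein above, which passed as lower. Of 10 tested members of that list none was called under heat, with a median of -0.55 and 9 of 10 negative. RD29B, a standard ABA reporter gene, had 1789.7 and 1940.4 in RD heat, against 4307.7 and 4194.1 in OE heat, without overlap (-1.19 ± 0.38, adjusted p = 0.186, limma). RD lay wholly below OE in 22.7% of all tested probe sets. Of 25 late embryogenesis abundant and dehydrin probe sets, desiccation-linked proteins, none was called under heat (median -0.57), and 4 were lower in RD control (AT2G23110, AT3G15670, AT3G53040 and LEA18, by -2.31, -1.75, -2.14 and -1.79). The shares of all tested probe sets called lower were 1.39% in heat and 0.428% in controls. The call of AT2G23110 held without any 1 control array, and those of the other genes did not (highest adjusted p of 0.216 to 0.305, limma). The drought factor DREB2A had 8810 and 5024.8 in RD heat, against 6293.9 and 6381.7 in OE heat, with overlapping arrays (0.07). DREB2B (-1.12) and CBF2 (0.84) did not pass either.

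Other lists had no call under heat: ABA synthesis and signalling (3 tested, median -0.58), stress zinc finger and antioxidant genes (3, -0.1, or 0.01 with quantile normalisation), jasmonate (3, 0.05), flavonoid synthesis (2, -0.45), the circadian clock (3, -0.23) and endoplasmic reticulum folding (4, -0.1). Nor had the reference genes (4, 0.1), the 21 mitochondrial genome probe sets (0.05) or the 69 plastid genome probe sets (0.06). By description, none of 121 cytosolic ribosomal protein probe sets (median 0.29), 44 proteasome subunits (0.26), 41 DnaJ proteins (0.07), 37 photosystem proteins (0.02) or 37 histones (0.24) was called. Yet 117 of the 121 ribosomal differences were positive (8362 of 15644 over all tested), and RD lay wholly above OE in 90 (26.2% of all tested). Against WT heat 60 of the 121 were called higher in RD heat (2.43% of all tested) and none in OE heat (0.326%). The medians were 1.03 and 0.71. Both comparisons share the WT heat arrays, 1 of which is of the second array series, so no contrast of the lines is read from these counts. Of the 44 proteasome differences 40 were positive. The galactinol and the seed marker lists had no probe set assigned by gene.

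**Figure D4:**
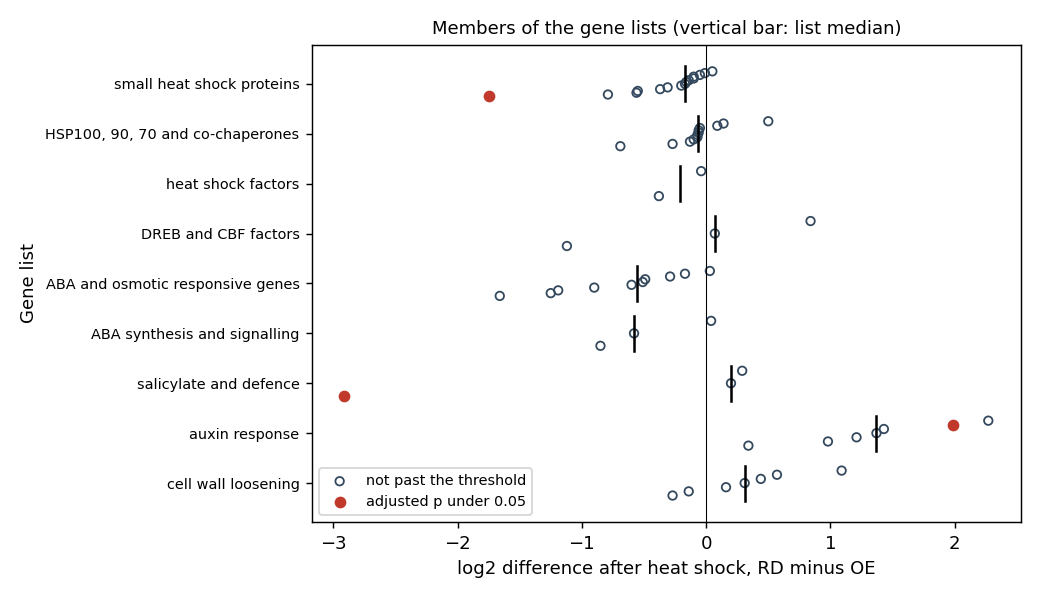
Log2 difference after heat shock, RD minus OE, for each tested member of 9 gene lists, with filled points for members past an adjusted p of 0.05 and a vertical bar at the list median. Small heat shock proteins centre on -0.17 and auxin response genes on 1.37, and 3 members in all are filled: HSP21.7-CVII, PR5 and WES1.

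Probe sets lower in RD heat were mostly lower in RD under the other treatments as well, on other arrays. Of the 217, 186 (85.7%) had a negative RD minus OE difference in controls and 192 (88.5%) under NaCl, where 50.2% and 50.8% of all tested probe sets had one. Their median difference was -0.78 in controls and -0.58 under NaCl. In the control comparison, 32 of the 217 passed as lower and none as higher. Of all tested probe sets, 0.428% were called lower there and 0.0192% higher. Under NaCl, where 1.07% of all tested probe sets were called lower and 0.0703% higher, 33 passed as lower and none as higher. LCR68 was an example, with 123.8 and 197.2 in RD control, against 3162.9 and 4838.4 in OE control (-4.65, adjusted p = 4.22e-05, limma). The lipid-transfer protein was another, with 18.7 and 30.3 in RD control, against 3713.6 and 2661.8 in OE control (-7.05, adjusted p = 0.000915, limma). Both control calls held whichever control array was left out, which was so for 10 of the 70 control calls.

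Some other genes differed more in heat than in controls by value, but the interaction test called none of the 258. Choosing genes for a large heat difference favours this, and the interaction uses the same heat arrays. No group of genes that differ only in heat is therefore read from these values. SWEET1 had 171.3 and 130.4 in RD control, against 307.9 and 500.2 in OE control (-1.39, adjusted p = 0.0721, limma), and its heat difference was larger by 2.28 log2 units (interaction adjusted p = 0.118). AT4G20350 had 97.8 and 122.5 in RD control, against 100.3 and 131.4 in OE control (-0.07). AT2G27080 had 240 and 230.1 in RD control, against 269.5 and 202.3 in OE control (0.01), and its interaction of 1.96 did not pass (adjusted p = 0.0706, limma). For the 41 higher probe sets the control difference was positive in 27 (65.9%) and the NaCl difference in 25 (61%), where 49.8% and 49.2% of all tested were. None passed in controls, where 0.0192% of all tested were called higher and 0.428% lower. Under NaCl 1 was called higher (0.0703% of all tested) and 2 lower (1.07%). One of those 2 was BZIP34, which had no Present call in RD or OE under NaCl, so no size is given.

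**Figure D5:**
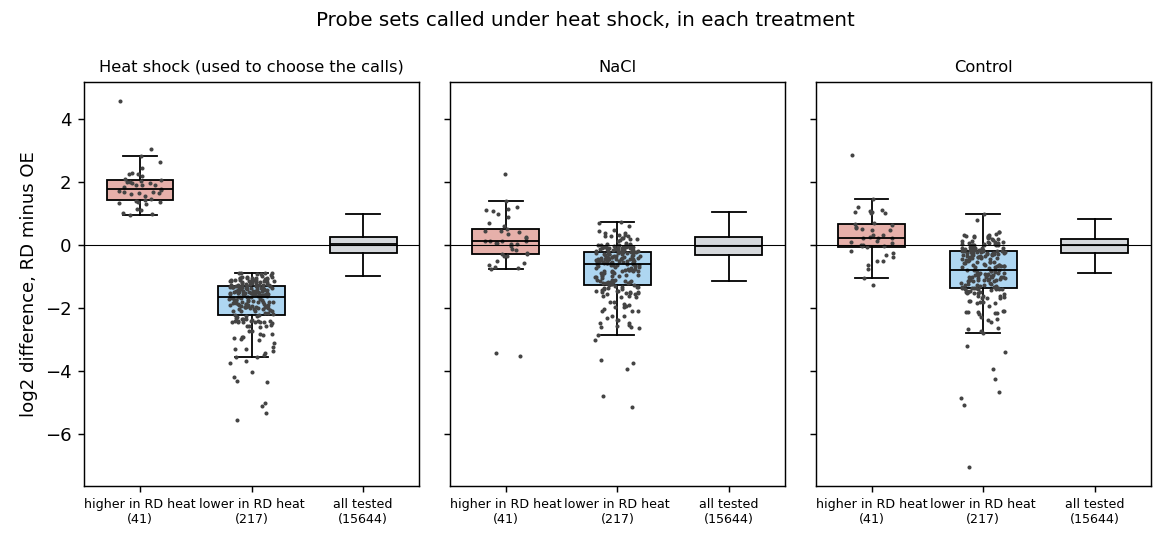
Log2 difference, RD minus OE, under heat shock, NaCl and control conditions for the 41 probe sets higher and the 217 lower in RD heat (points and boxes) and for all 15644 tested (boxes only; boxes span the quartiles and whiskers 1.5 interquartile ranges). The heat panel shows the values that chose the calls; the lower set has medians of -0.58 under NaCl and -0.78 in controls.

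Against heat-shocked wild type the values of these probe sets are a description, since the RD and OE heat arrays that chose them enter every comparison. Choosing them for a wide gap between the lines favours a WT level inside that gap and more calls against WT than over all tested probe sets, so nothing is read from either. The mean WT heat level lay between the lines for 194 of the 217 lower probe sets and for 30 of the 41 higher ones. Of the 217, 73 were called lower in RD heat than in WT heat, where 1.14% of all tested were, and 9 were called higher in OE heat than in WT heat, where 0.326% were. The median difference from WT heat was -1.05 for RD heat and 0.63 for OE heat. Of the 41, 7 were called higher in RD heat than in WT heat (2.43% of all tested) and 11 lower in OE heat than in WT heat (0.307%). Both comparisons share the WT heat arrays, 1 of which belongs to the second array series. The fit adjusts differences from WT for that series, so they need not match the measured signals. The count of WT means between the lines uses measured signals without that term. LCR68 was 2457.7 and 2628.4 in WT heat, between the lines, with differences from WT of -2.89 for RD heat (adjusted p = 0.00545, limma) and 1.45 for OE heat (adjusted p = 0.0892, limma). SWEET1 likewise differed from WT by -2.61 in RD heat (adjusted p = 0.00415, limma) and by 1.06 in OE heat (adjusted p = 0.112, limma). AT2G30540 and XTH18 lay near WT in OE heat (0.14 and -0.36, neither called) and above it in RD heat (2.98 and 1.84, both called). AT2G27080 and AT1G66090 lay below WT in OE heat (-1.78 and -3.35, both called), with RD heat at 0.19 and -1.09 from WT.

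Within each line, heat against control gives where the differing probe sets moved, as a description, because these values share the heat arrays with the comparison above. Of the 217, heat raised 80 (36.9%) in RD and 125 (57.6%) in OE, and lowered 27 in RD and 6 in OE. Over all tested probe sets, heat raised 7.4% in RD and 8.39% in OE, and lowered 14.6% in RD and 17.7% in OE. Of the 41, heat raised 25 (61%) in RD and 8 (19.5%) in OE. SWEET1 differed between heat and control by 0.8 in RD and 3.08 in OE, and XTH18 by 1.92 in RD and 0.06 in OE. Of the 15 small heat shock proteins, heat raised 12 in RD and 12 in OE.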

How the data were processed

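Biotinylated RNA from 10 µg of total RNA per sample was hybridised to Affymetrix arrays of 22810 probe sets, 64 of them controls. Per the submitters' processing notes the authors ran MAS5, with no version stated. The deposited intensity of each probe set is on a linear scale. The deposited detection p-value and the call made from it came with each intensity. The trimmed mean intensity was 500 to 500.1 on every array, so arrays had been scaled to a common mean. No genome build is given with the deposited values.

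From these files, log2 of the signal (floor 0.1) was modelled in R 4.3.3 by the lmFit and eBayes functions of limma 3.58.1, with an intensity trend. The fit covered all 18 arrays, with 9 group means and a term for the array series that the file names give (15 and 3 arrays, the 3 being WT heat 1, WT NaCl 1 and OE NaCl 1), which left 8 residual and 5.21 prior degrees of freedom. All 4 heat arrays compared are of the first series. Tested were the 15644 probe sets Present on both RD heat or both OE heat arrays. P-values were two-sided, adjusted by Benjamini-Hochberg within each contrast over all tested, with a threshold of 0.05, and differences are log2, RD minus OE, ± SE. With 2 arrays per group the number of arrays limits the precision. Folds against a group without any Present array are bounds: per array the higher of the measured signal and the lowest signal called Present stood for the dim group. No fold is given where both groups lack one.

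Genes came from the platform's annotation table (13513 probe sets with 1 gene, 503 with several) and, for 334, from a name in the description; 8396 had none. Named genes were the 12 largest differences in each direction among called probe sets with exactly 1 gene, no overlap between the lines and Present calls on both arrays of the higher group, plus list members that passed. The comparison, the gene lists and the naming rule were chosen with earlier results of these data known; families by description and the organelle lists were formed after the data were seen, and none was tested as a set. Alternatives covered the series term, the arrays fitted, the replicate block, quantile normalisation, filters, log2(signal + 16), the intensity trend and the omission of single arrays. Python 3.11.15, pandas 2.3.3, numpy 2.4.6 and matplotlib 3.10.9 read the files and drew the figures. No promoter or protein sequence was used here.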

Additional observations from a re-analysis of the deposited data

Results flagged for a closer look

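One probe set, described as heat shock protein 18, was singled out because the difference between the lines under heat shock differed from that without stress by a test of the difference itself. The interaction was 3.08 log2 units (adjusted p = 0.0094, limma), from a difference of -0.2 between RD heat and OE heat and of -3.28 between RD control and OE control. Under NaCl the RD minus OE difference of the same probe set was -2.43 (adjusted p = 0.000424, limma). The heat signals of this probe set lay near the top of the arrays' range, and the part of any compression there was not tested.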

How the results depend on the processing

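Counts of called probe sets moved with the arrays that set the spread. For RD heat against OE heat (258), the count was 157 without the series term, 985 (30.1% of them higher, against 15.9%) with only the 4 arrays compared, and 47 to 129 when single arrays were left out. For the controls (70) it was 38, 118 with only the first series, 5 with only the compared groups, and 12 to 53 with single arrays left out. For NaCl (179) it was 56 with only the compared groups and 22 to 258 with single arrays left out, 22 being without OE NaCl 2. The interaction count (1) was 10 with only the compared groups, 10 with log2(signal + 16), 2 without the intensity trend, and 0 to 1 with single arrays left out. Single omissions outside heat shock were added after seeing the data. Quantile normalisation, other filters and the other settings kept the heat count between 228 and 371. No named gene reversed under any alternative. AT1G24575 and AT1G66090 lost the call without the series term, and AT1G24575, BZIP34 and AT5G64870 without a filter. The labels do not say that replicate numbers mark a shared batch, and with 2 replicates they were not treated as pairs: replicate differences of RD heat and OE heat correlated at 0.2, those of RD control and OE control at 0.36, RD control and WT control at 0.38, and OE control and WT control at 0.47, and the other pairs of groups in the first series at -0.09 to 0.06. With the replicate number as a block the counts were 268 for heat (237 shared with the 258), 72 for controls, 168 for NaCl and 1 for the interaction. SDs of replicate differences were 0.398 in RD heat and 0.431 in OE heat, against 0.579 in RD control, 0.455 in OE control and 0.82 in WT heat. Probe sets near background have only bounds in the dimmer line.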
